A study of Mus musculus with 18 samples.

Results

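The Hoxc genes are the 9 homeobox genes of the mouse Hoxc cluster, Hoxc4, Hoxc5, Hoxc6, Hoxc8, Hoxc9, Hoxc10, Hoxc11, Hoxc12 and Hoxc13. They were taken by symbol, 9 of the 23421 genes of the deposited expression table, and each had a single RefSeq transcript there. The cluster lies on chromosome 15 of the mm9 build and covers 115722 bases, from Hoxc13 at position 102751562 to the end of Hoxc4 at 102867283. No member's reads were therefore divided between isoforms, and in the table's coordinates the 9 transcripts do not overlap one another. The row of the microRNA gene Mir615, which is no member, has the same locus as Hoxc5, so reads of these rows cannot be told apart.

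Hox genes encode transcription factors that give cells a position along the head-to-tail axis. Within a cluster their order on the chromosome matches the order in which they come on and the body level at which they act, with low paralogue numbers acting toward the head and high numbers toward the tail. Polycomb repressive complex 2 (PRC2), which methylates lysine 27 of histone H3 and needs its subunit Eed to do so, keeps Hox clusters silent in embryonic stem (ES) cells. Retinoic acid is known to switch on the low-numbered end first.

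The study asked how PRC2-dependent methylation bears on transcription, and measured RNA in 6 libraries, 1 per group, beside 12 ChIP-seq samples that are not analysed here. 4 of the libraries are of E36 cells, an ES line of 129/Ola background. ES Eed KO and ES wild type are undifferentiated cells in 15% serum with leukemia inhibitory factor. EB Eed KO and EB wild type are embryoid bodies, aggregates that differentiate without that factor, kept for 48 hours in hanging drops, given 0.5 µM all-trans retinoic acid from day 2 to day 5 and cultured to day 9. The remaining pair is of E14 ES cells, also 129/Ola and wild type apart from the hairpin, carrying a lentiviral hairpin against Setd2 (shSetd2) or a scrambled one (shCtrl), selected with puromycin and taken on day 4 after selection. The labels give neither the Eed allele nor the number of clones.

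The values are FPKM, fragment counts scaled to transcript length and library size, so levels can be compared between genes. No group has a replicate, so the differences below carry no error estimate and none was tested. A difference is that of log2(FPKM + 1) between libraries, a scale on which the change of a gene near 0 comes out too small. Differences of at least 1 in size are called higher or lower here (the size rule). Only genes with an FPKM of at least 1 were counted, in any of the 4 E36 libraries, or in either library where an E14 library took part. Embryoid bodies hold several cell types, and fewer cells of a type and less RNA per cell cannot be told apart in them.

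Several facts about the libraries touch every result. In ES cells Eed mRNA had 77.8 FPKM with the KO label and 72.3 in wild type. In embryoid bodies it had 21.8 with the KO label and 25.04 in wild type. Eed mRNA therefore does not check these labels, and the directions below rest on the labels alone. Setd2 had 2.59 in shSetd2 and 16.8 in shCtrl. The Y-linked gene Eif2s3y had 0.0628 in the library labelled EB Eed KO and between 20.4 and 36.9 in the other 5, so that library stands apart. Its main Trp53 transcript was at 4.8e-06, with 57.0 to 239 in the other 5 libraries, of which ES wild type had the 239 and the other 4 had 57.0 to 65.5. These are values of a single transcript, so they do not show that Trp53 RNA as a whole was absent. No group has a second library to repeat these values, so no result can be given without them. ES cell markers were present in the ES libraries, with Pou5f1 at 540.1 in ES Eed KO and 586 in ES wild type, and reached 1.21 in EB Eed KO and 20.8 in EB wild type. Depth relative to ES wild type, read from the steps of low values, was 1.18 in ES Eed KO, 0.799 in EB Eed KO, 1.19 in EB wild type, 0.897 in shSetd2 and 1.22 in shCtrl. The 428 genes of chromosome 15 at or above 5 FPKM had a median Eed KO difference 0.01 above that of all such genes in ES cells. In embryoid bodies it was 0.02 above. These medians cover the whole chromosome and do not describe the stretch around the cluster alone.

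The whole cluster was nearly silent in wild-type ES cells and was occupied from opposite ends in the embryoid bodies of each genotype. The summed level of the 9 genes was 11.1 FPKM in ES Eed KO and 0.790 in ES wild type, 44.0 in EB Eed KO and 127 in EB wild type, and 2.27 in shSetd2 and 2.64 in shCtrl. In EB wild type 95.9% of that sum came from Hoxc4, Hoxc5, Hoxc6 and Hoxc8, and 0.221% from Hoxc10 to Hoxc13. In EB Eed KO the shares were 19.5% and 69.2%. ES Eed KO had 24.2% and 66.0%, so the high-numbered end also held most of its smaller sum. It did so too at the still lower sums of ES wild type (28.7% and 61.1%), shSetd2 (21.2% and 65.9%) and shCtrl (16.3% and 79.7%). In undifferentiated cells this split was therefore not particular to the KO label.

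**Figure D1:**
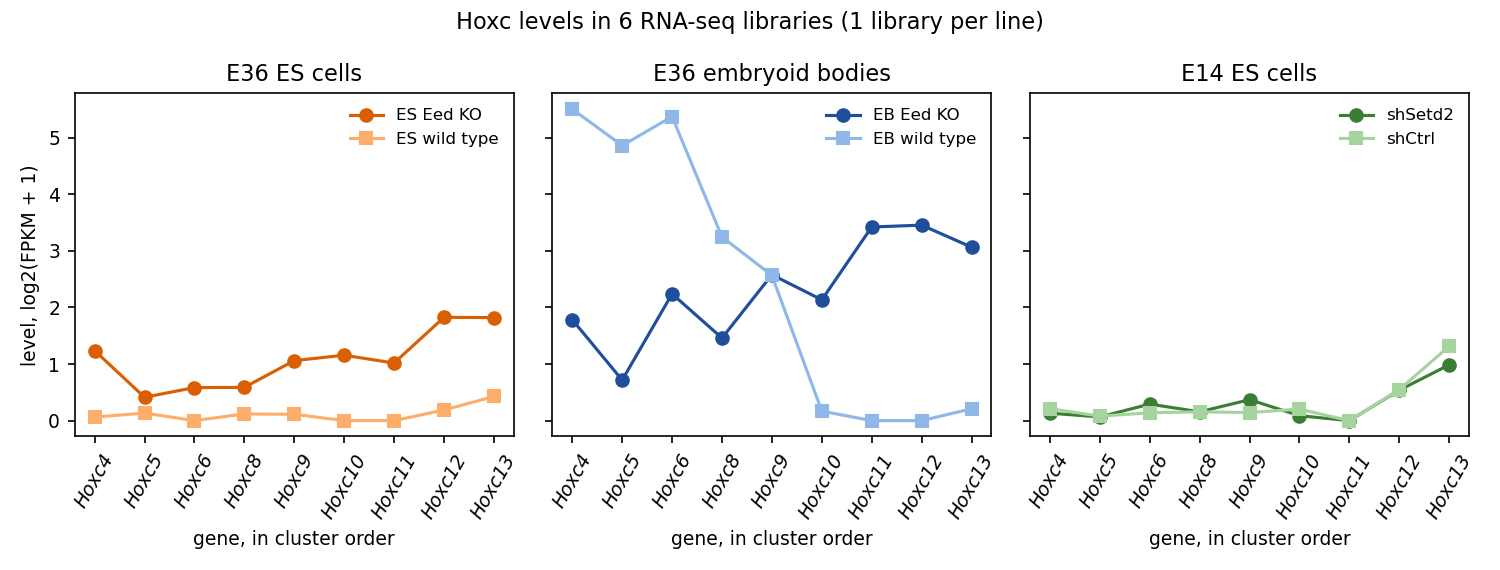
Level of each Hoxc gene as log2(FPKM + 1), with the genes in cluster order on the horizontal axis and 1 line per library. EB wild type stands high at Hoxc4 to Hoxc6 and near 0 from Hoxc10 on, EB Eed KO is highest at Hoxc11 to Hoxc13, and both lines meet at Hoxc9, at 4.97 FPKM in EB Eed KO and 4.93 in EB wild type.

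The low-numbered end is described first. Hoxc4 (NM_013553, positions 102864826 to 102867283), which patterns neck and upper thoracic levels, had 1.36 FPKM in ES Eed KO, 0.0442 in ES wild type, 2.44 in EB Eed KO, 44.4 in EB wild type, 0.0960 in shSetd2 and 0.158 in shCtrl. EB wild type thus stood far above the other 5 libraries, and the libraries labelled Eed KO were the next highest. It was the most abundant Hoxc gene of EB wild type.

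Hoxc4 is the only member whose promoter window is in the RefSeq promoter table used (1 of 9), so its sequence is the one that can be shown. The window covers 250 bases before the annotated start and 50 from it on, on the plus strand of GRCm38.p6, chr15:103034145-103034444. Capitals mark the single match found to the core motif bound by retinoic acid receptors, AGGTCA, which here reads as TGACCT on the printed strand.

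Hoxc4 promoter: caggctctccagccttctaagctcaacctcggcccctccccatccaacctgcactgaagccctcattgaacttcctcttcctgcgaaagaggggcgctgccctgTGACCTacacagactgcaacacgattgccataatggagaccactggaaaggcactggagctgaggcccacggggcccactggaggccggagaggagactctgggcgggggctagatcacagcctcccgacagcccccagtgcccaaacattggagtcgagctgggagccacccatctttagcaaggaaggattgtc

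The search covered both strands. AGGTCA occurs in 16.3% of the 32851 promoter windows of the same length, so a match is common. The motifs TTTATTG (bound by Cdx factors, in 4.60% of windows) and TGATTNAT (bound by Hox-Pbx pairs, in 3.22%) were not among the letters of the Hoxc4 window. The window holds 9 CpG dinucleotides, against a median of 7 over all windows, and 45.8% of windows hold at least as many. Its G and C content is 60.3%, against a median of 52.7%.

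Hoxc5 (NM_175730, 102844439 to 102847860) had 0.331 FPKM in ES Eed KO, 0.0970 in ES wild type, 0.643 in EB Eed KO, 28.1 in EB wild type, 0.0460 in shSetd2 and 0.0564 in shCtrl. It was the weakest member of both libraries labelled Eed KO and reached 1 FPKM in EB wild type alone. The table gives the microRNA gene Mir615 the same locus as Hoxc5. Its row had 14.7 FPKM in EB wild type, and the other 5 libraries were listed at 0. Its mature arms are shown because this row is the only non-Hox transcript inside the cluster that was high where the low-numbered genes were high. The sequences are those of RefSeq on GRCm38.p6, plus strand of chromosome 15, with the seed (bases 2 to 8) in capitals.

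mmu-miR-615-5p: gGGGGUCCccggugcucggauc

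mmu-miR-615-3p: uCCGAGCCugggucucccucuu

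The arms have different seeds. The libraries were made from poly(A) RNA without strand marking, so the Mir615 row does not measure the mature microRNA, and its reads and those of the Hoxc5 precursor that overlaps it cannot be told apart. The other microRNA gene of the cluster, Mir196a-2, was listed at 0 in all 6 libraries.

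Hoxc6 (NM_010465, 102839993 to 102842312), which marks the thoracic region and the forelimb motor column, had 0.499 FPKM in ES Eed KO, was listed at 0 in ES wild type, and had 3.72 in EB Eed KO, 40.4 in EB wild type, 0.224 in shSetd2 and 0.101 in shCtrl. Hoxc8 (NM_010466, 102820970 to 102824685), a thoracic gene that also sets motor neuron pools of the forelimb, had 0.502 in ES Eed KO, 0.0852 in ES wild type, 1.75 in EB Eed KO, 8.49 in EB wild type, 0.114 in shSetd2 and 0.113 in shCtrl. Both followed the order of Hoxc4, highest in EB wild type and next in EB Eed KO, but Hoxc8 reached a lower level.

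Hoxc9 (NM_008272, 102807463 to 102814875), which sets thoracic motor neuron identity and restrains brachial Hox genes in the spinal cord, had 1.09 FPKM in ES Eed KO, 0.0811 in ES wild type, 4.97 in EB Eed KO, 4.93 in EB wild type, 0.293 in shSetd2 and 0.104 in shCtrl. Its difference between the embryoid body libraries was 0.01 on the log2 scale, or 0.12 to 0.13 with the 3 other scalings between libraries (upper quartile, median-of-ratios and equal totals). The other 8 members differed by at least 1.79 in size.

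At the high-numbered end the order of the embryoid body libraries was the opposite. Hoxc10 (NM_010462, 102797227 to 102802328), a gene of lumbar and hindlimb levels, had 1.23 FPKM in ES Eed KO, was listed at 0 in ES wild type, and had 3.39 in EB Eed KO, 0.123 in EB wild type, 0.0622 in shSetd2 and 0.151 in shCtrl. Hoxc11 (NM_001024842, 102784957 to 102787132), a gene of sacral and hindlimb levels, had 1.02 in ES Eed KO and 9.72 in EB Eed KO and was listed at 0 in the other 4 libraries. For both genes the libraries labelled Eed KO were the highest.

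Hoxc12 (NM_010463, 102767284 to 102768948) had 2.54 FPKM in ES Eed KO, 0.138 in ES wild type and 9.96 in EB Eed KO, was listed at 0 in EB wild type, and had 0.452 in shSetd2 and 0.462 in shCtrl. Hoxc13 (NM_010464, 102751562 to 102759245), required for hair and nail keratins, had 2.53 in ES Eed KO, 0.344 in ES wild type, 7.37 in EB Eed KO, 0.156 in EB wild type, 0.980 in shSetd2 and 1.49 in shCtrl. In ES Eed KO Hoxc12 and Hoxc13 had the highest levels of the cluster, and in EB Eed KO Hoxc12 and Hoxc11 did, each pair too close to order without a replicate spread. Hoxc13 had the highest value in ES wild type, shSetd2 and shCtrl.

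Hotair (NR_047528), a long non-coding RNA between Hoxc12 and Hoxc11, had 0.124 FPKM in ES Eed KO, 1.15 in EB Eed KO and 0.0179 in shSetd2, and was listed at 0 in ES wild type, EB wild type and shCtrl. It was thus highest where the high-numbered Hoxc genes were highest. Hotair is known to be transcribed against the direction of the cluster, and an unstranded library cannot assign such reads to a strand.

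The first comparison asks what loss of Eed does to the cluster in undifferentiated cells. In the library labelled ES Eed KO all 9 genes were above ES wild type, from 0.28 for Hoxc5 to 1.64 for Hoxc12. The size rule called 5 of the 9 higher and 0 lower. The 5 were Hoxc4 at 1.18, Hoxc10 at 1.16, Hoxc11 at 1.02, Hoxc12 at 1.64 and Hoxc13 at 1.39, and Hoxc9 missed the rule at 0.95. Over all 14772 genes tested the rule called 2.82% higher and 3.01% lower, and the median difference was 1.02 for the Hoxc genes and -0.03 for all genes. With equal totals the split of all genes was 4.86% higher and 2.89% lower. No Hoxc gene reached 1 FPKM in ES wild type and 6 did in ES Eed KO, and 4 members (Hoxc10 to Hoxc13) passed the filter only through a library labelled Eed KO, so their count is a description of these levels and no support for an effect.

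Hoxc12 ranked 112 and Hoxc13 ranked 169 from the top of the 14772 genes in that comparison. The size of the ES result depends on how values near 0 are handled. With a pseudocount of 0.1 all 9 members were called higher, where the rule then called 6.34% of all genes, and with a size rule of 1.5 only Hoxc12 was, where it called 0.934%. With E14 shCtrl as the control in place of ES wild type, 6 members passed the filter and 3 were higher (Hoxc4, Hoxc11 and Hoxc12), against 5.47% of all genes, while Hoxc10 was at 0.95 and Hoxc13 at 0.51. Hoxc11 was within the rule, at 0.98 and 0.99, with upper-quartile and median-of-ratios scaling.

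In embryoid bodies the comparison asks the same after retinoic acid, and there the cluster was divided at Hoxc9. The 4 genes of the low-numbered end were all lower in EB Eed KO, with Hoxc4 at -3.72, Hoxc5 at -4.14, Hoxc6 at -3.13 and Hoxc8 at -1.79. Hoxc9 was at 0.01. The 4 genes of the high-numbered end were all higher, with Hoxc10 at 1.97, Hoxc11 at 3.42, Hoxc12 at 3.45 and Hoxc13 at 2.86. The rule called 7.68% of the 14772 genes higher and 9.82% lower, with a median of -0.14 over all genes, and 9.21% higher and 7.87% lower with median-of-ratios scaling. Since the members went opposite ways, their median of 0.01 describes none but Hoxc9.

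Hoxc5 ranked 107 and Hoxc4 ranked 129 from the lowest of all genes tested, and Hoxc12 ranked 53 and Hoxc11 ranked 55 from the highest. In every comparison among E36 libraries, Hoxc10 to Hoxc13 passed the filter only through a library labelled Eed KO. Hoxc5 passed it only through EB wild type. Their calls and ranks therefore describe these levels and are no support for an effect. Along the cluster, the difference had a Spearman rho of 0.93 with gene order over the 9 genes, which share their libraries and their chromosome. On the linear scale Hoxc13 had 47.2 times and Hoxc10 27.5 times the EB wild-type level. No ratio is given for Hoxc11 and Hoxc12, since EB wild type was listed at 0. Every call in this comparison, of 4 higher and 4 lower, was the same under each pseudocount, size rule and scaling tried.

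**Figure D2:**
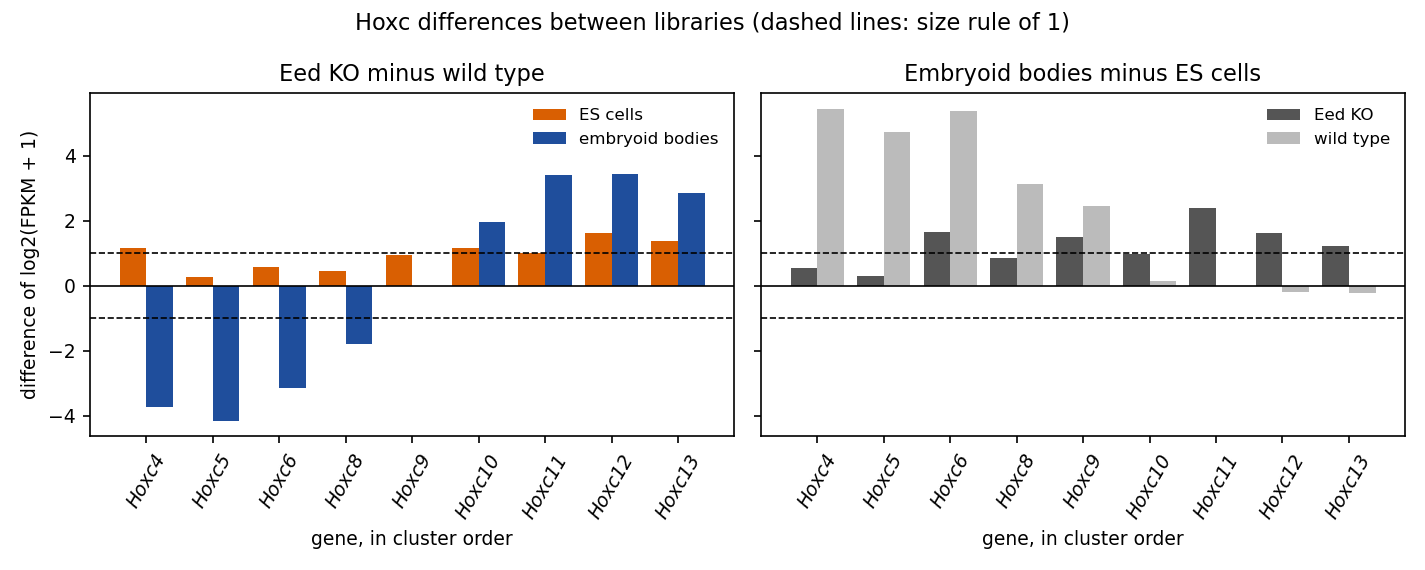
Difference of log2(FPKM + 1) for each Hoxc gene, Eed KO minus wild type on the left and embryoid bodies minus ES cells on the right, with dashed lines at the size rule of 1. In ES cells all 9 Eed KO bars lie above 0, whereas in embryoid bodies the bars run from -4.14 at Hoxc5 to 3.45 at Hoxc12.

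The difference between the Eed effects in embryoid bodies and in ES cells was -4.90 for Hoxc4, -4.42 for Hoxc5, -3.72 for Hoxc6 and -2.26 for Hoxc8. It was -0.94 for Hoxc9 and 0.81 for Hoxc10, and 2.40 for Hoxc11, 1.82 for Hoxc12 and 1.46 for Hoxc13. By the size rule 3 members were higher and 4 lower, against 9.13% and 10.1% of all genes. Hoxc4 was called in opposite directions, higher in ES Eed KO and lower in EB Eed KO, each against its own wild type.

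Differentiation was compared within each genotype. In wild-type cells it came with higher levels of 5 members, Hoxc4 at 5.44, Hoxc6 at 5.37, Hoxc5 at 4.73, Hoxc8 at 3.13 and Hoxc9 at 2.45, and 0 were lower. Over all genes 19.3% were higher and 14.2% lower, or 26.8% and 11.0% with equal totals. Hoxc4 and Hoxc6 ranked 48 and 52 from the highest of 14772. Hoxc10 to Hoxc13 stayed between -0.22 and 0.17, with no level above 0.344 FPKM in EB wild type or ES wild type. At such levels the pseudocount matters, and with 0.1 Hoxc10 was at 1.16 and Hoxc12 at -1.25. The difference had a Spearman rho of -0.98 with gene order over the 9 genes.

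In cells labelled Eed KO the same comparison was made. EB Eed KO was higher than ES Eed KO for 5 members, Hoxc6 at 1.66, Hoxc9 at 1.52, Hoxc11 at 2.40, Hoxc12 at 1.63 and Hoxc13 at 1.24, with 0 lower, against 19.7% higher and 18.5% lower of all genes, or 26.5% and 15.1% with equal totals. Hoxc10 was at 0.98 and Hoxc8 at 0.87, and Hoxc4 and Hoxc5 were at 0.55 and 0.30. Hoxc10 was called higher under each of the 3 other scalings, at 1.03 to 1.40, and Hoxc8 with equal totals, at 1.37. Both were called with a pseudocount of 0.1 or 0.5, so the count was 6 or 7 in those settings. Hoxc6 and Hoxc9 were called in both genotypes. The differentiation and Eed comparisons share libraries, so their values are set side by side and not counted as repeats.

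In E14 cells the cluster was almost silent. Only Hoxc13 passed the filter, through its 1.49 FPKM in shCtrl, and it was at -0.33 in shSetd2 against shCtrl, within the size rule. Over 12317 genes 0.706% were higher and 1.7% lower, or 1.47% and 1.62% with equal totals. The other 8 members were below 1 FPKM in both libraries and were not tested. Hoxc13 also stood at 0.89 in shCtrl against ES wild type, where 3.14% of 12747 genes were higher and 5.65% lower, or 3.84% and 4.4% with median-of-ratios scaling. The control ES libraries thus differed in Hoxc13 by nearly the size rule, and by at least 1 with a pseudocount of 0.1 or 0.5 and with equal totals.

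The same paralogue groups were set beside those of the other Hox clusters in embryoid bodies. Of the paralogue groups 4 to 8, EB Eed KO was lower for 4 of 4 Hoxc genes, 3 of 4 Hoxa genes, 5 of 5 Hoxb genes and 1 of 2 Hoxd genes. Of groups 10 to 13 it was higher for 4 of 4 Hoxc genes, 3 of 3 Hoxa genes, 1 of 1 Hoxb gene and 4 of 4 Hoxd genes. Over all genes tested, 7.68% were higher and 9.82% lower. All genes of groups 10 to 13 but Hoxb13 passed the filter only through a library labelled Eed KO. Their counts therefore describe levels and are no support for an effect. The clusters parted at group 9. Hoxa9 had 15.02 FPKM in EB Eed KO and 3.06 in EB wild type, a difference of 1.98. Hoxd9 had 8.02 in EB Eed KO and 2.16 in EB wild type, a difference of 1.51. Hoxb9 went the other way, with 10.2 in EB Eed KO and 82.1 in EB wild type, a difference of -2.90, and Hoxc9 stood between them at 0.01. With equal totals the Hoxa count of groups 4 to 8 became 4 of 4, and no other count of these groups changed in embryoid bodies.

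The levels of paralogues differed as well. In EB wild type Hoxc8 had 8.49 FPKM and its paralogues Hoxb8 and Hoxd8 had 86.5 and 7.71. In EB Eed KO Hoxc10 had 3.39, beside 34.8 for Hoxa10 and 14.4 for Hoxd10. Hoxc13 had 7.37 there, beside 57.3 for Hoxd13, 21.7 for Hoxa13 and 15.1 for Hoxb13, which makes it the lowest of its group. These differences between clusters were not tested.

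**Figure D3:**
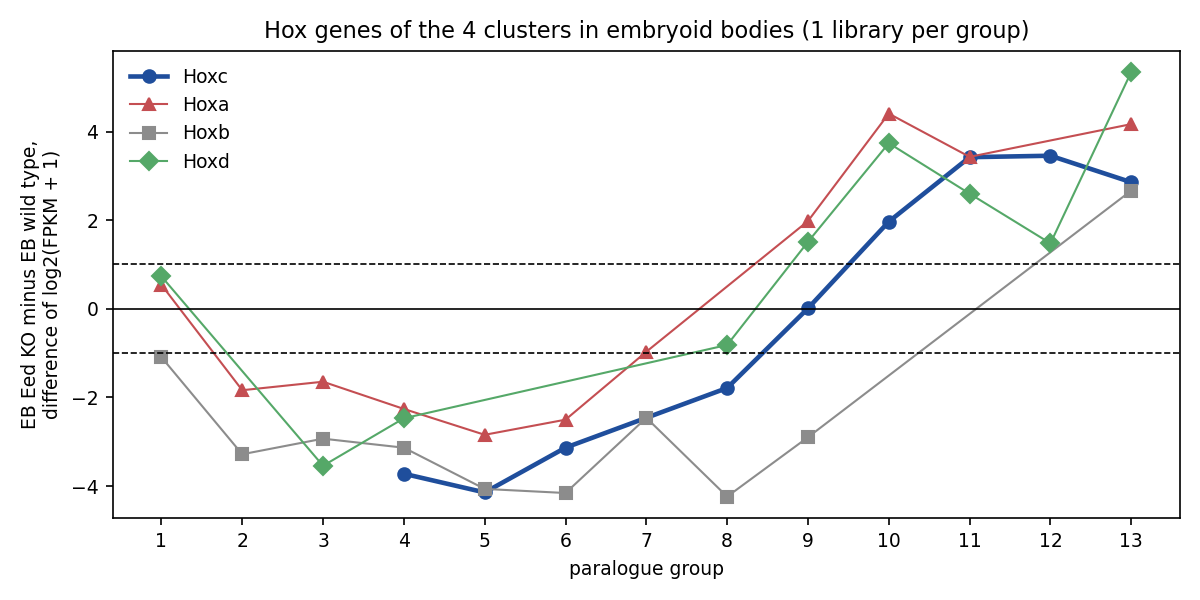
Difference of log2(FPKM + 1) between EB Eed KO and EB wild type for the Hox genes of the 4 clusters, by paralogue group, with dashed lines at the size rule of 1. The Hoxc line passes 0 at group 9, where Hoxa9 and Hoxd9 lie above it at 1.98 and 1.51 and Hoxb9 below it at -2.90.

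Transcripts beside the cluster were read to see how far the division extended. On the Hoxc4 side the nearest, the non-coding D930007P13Rik, 86218 bases away, had 0.304 FPKM in EB Eed KO and 3.39 in EB wild type, a difference of -1.75. Smug1, a uracil-DNA glycosylase gene 116438 bases away, had 5.72 in EB Eed KO and 21.1 in EB wild type, a difference of -1.72. Both were lower by the size rule, as were the nearest Hoxc genes and 9.82% of all genes tested. D930007P13Rik passed the filter only through EB wild type, so its call describes levels and is no support for an effect. In ES cells D930007P13Rik and Smug1 were at 0.04 and 0.18.

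Farther out on that side Cbx5, which encodes a heterochromatin protein, was at -0.24 and Hnrnpa1, an RNA-binding protein gene, at -0.42 in embryoid bodies, as was the row of Gm10052, which the table gives the same locus. On the Hoxc13 side, Calcoco1, 198953 bases away, had 25.2 FPKM in EB Eed KO and 15.1 in EB wild type, a difference of 0.70. Atp5g2, Npff and Tarbp2 were at -0.45, -0.79 and -0.62. All of these were within the size rule. Mir688 was listed at 0 in the 6 libraries.

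**Figure D4:**
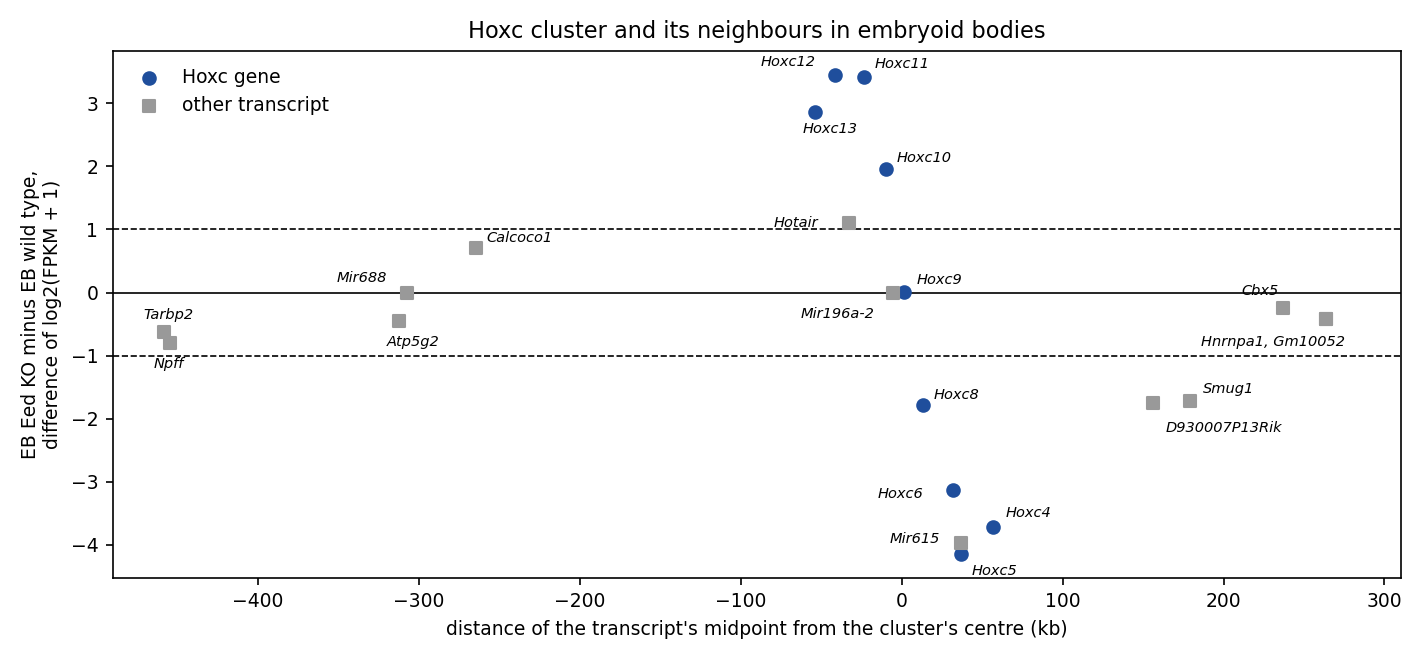
Difference of log2(FPKM + 1) between EB Eed KO and EB wild type for the Hoxc genes (circles) and the other transcripts in and beside the cluster (squares), by distance from the cluster's centre in kilobases. Inside the cluster the values pass from positive on the Hoxc13 side to negative on the Hoxc4 side, and D930007P13Rik and Smug1 beyond Hoxc4 are at -1.75 and -1.72.

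Genes that act on Hox clusters or with Hox proteins were counted from fixed lists, to be read against the 7.68% higher and 9.82% lower of all genes in embryoid bodies. Of the Cdx genes, which drive trunk and tail Hox genes, 2 of 3 passed the filter and 0 were called in EB Eed KO, where Cdx2 had 0.756 FPKM, against 0.134 in EB wild type (called higher with equal totals, at 1.10). Of 9 genes for Meis, Pbx and Pknox proteins, the DNA-binding partners of Hox proteins, 0 were higher and 2 lower, Pbx3 at -1.06 and Pbx4 at -1.14. Pbx3 was within the rule, between -0.97 and -0.92, under each of the 3 other scalings. Of 6 core PRC2 genes and of 7 genes for trithorax-type activators and H3K27 demethylases, 0 were called in either direction, in ES cells as in embryoid bodies. The activator list held 8 genes, but Kmt2a was not found in the data by its symbol and is not covered.

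Of 10 retinoic acid receptor, binding and degradation genes, 1 was higher in EB Eed KO, the degrading enzyme Cyp26a1 at 1.04, and 3 were lower. The 3 were the receptor Rara, with 3.31 FPKM in EB Eed KO and 19.6 in EB wild type, and the binding proteins Crabp1 at -1.81 and Crabp2 at -1.13. Crabp2 was within the rule, at -0.99, with upper-quartile and median-of-ratios scaling. Of 5 tested genes for signals of the tail end, 2 were lower, Wnt3a at -1.91 and Fgf4 at -1.51. Wnt3a passed the filter only through EB wild type, so its call describes levels and is no support for an effect. In ES cells the Cdx list had 1 called higher (Cdx1 at 1.06), the retinoic acid list 1 lower (Rara at -1.80), and the tail-end list and the Meis and Pbx list 0 called. Cdx1 passed the filter only through ES Eed KO, so its call describes levels too. Crabp2 was called higher in ES cells with upper-quartile (1.02) and equal totals (1.11) scaling, and Wnt5a of the tail-end list with equal totals (1.03).

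Markers of cell types that embryoid bodies can hold differed along with the Hoxc genes. Of 9 neuron markers, 9 were lower in EB Eed KO, with a summed level of 6.74 FPKM there and 559 in EB wild type. Tubb3, a neuronal tubulin, had 1.23 in EB Eed KO and 290.2 in EB wild type. Map2 and Elavl4 of that list were listed at 0 in EB Eed KO. Map2, Dcx and Elavl4 passed the filter only through EB wild type, so their calls describe levels and are no support for an effect. Of 7 paraxial mesoderm markers 4 were tested and 4 were lower, with a sum of 6.57 in EB Eed KO and 39.1 in EB wild type. The somite factor Uncx had 0.382 in EB Eed KO and 14.8 in EB wild type, and Msgn1 was listed at 0 in both. Uncx also passed the filter only through EB wild type, so the same holds for its call. ES cell markers were lower in 5 of 6 cases, with a sum of 23.0 in EB Eed KO and 109 in EB wild type. Neurons and trunk mesoderm are known to express low-numbered Hoxc genes, and their part in the Hoxc values was not tested.

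Other markers were higher. Of 8 limb and lateral mesoderm markers 4 were higher in EB Eed KO and 0 lower, with a sum of 231 FPKM in EB Eed KO and 73.6 in EB wild type. Among them the hindlimb factor Pitx1 had 52.8 in EB Eed KO and 1.39 in EB wild type. With other scalings Tbx3 of this list was also called higher, at 1.06 to 1.08. Tbx4 of this list passed the filter only through EB Eed KO, so its call describes levels and is no support for an effect. Of 7 motor neuron markers 3 were tested and 2 were higher, with a sum of 21.8 in EB Eed KO and 5.48 in EB wild type. Isl2 had 5.75 in EB Eed KO and 0.232 in EB wild type, and Lhx3, a defining motor neuron factor, was listed at 0 in EB Eed KO. Isl2 passed the filter only through libraries labelled Eed KO, so its call describes levels too.

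Cardiac markers had 2 higher of 4 tested, with a sum of 24.9 FPKM in EB Eed KO and 2.05 in EB wild type, and Tnnt2 was listed at 0 in EB Eed KO. The heart factor Nkx2-5 had 9.31 in EB Eed KO and 0.276 in EB wild type. It passed the filter only through libraries labelled Eed KO, so its call describes levels and is no support for an effect. Of 7 endoderm markers 4 were tested and 3 were higher, with a sum of 82.4 in EB Eed KO and 23.5 in EB wild type. Of that sum Gata6 had 52.6 and Gata4 24.8 in EB Eed KO. Foxa2, also called higher, passed the filter only through EB Eed KO, so its call describes levels too. Among the untested ones, Sox17 had 0.420 in EB Eed KO and 0.826 in EB wild type. Afp had 0.290 and 0.339, and Ttr 0.463 and 0.365, in the same order. Trophoblast markers had 4 higher of 5 tested, with a sum of 142 in EB Eed KO and 36.01 in EB wild type, and Hand1 of that list had 51.2 in EB Eed KO and 0.782 in EB wild type. The untested Elf5 of that list had 0.168 in EB Eed KO and 0.443 in EB wild type. With equal totals Myl7 of the cardiac list (1.21) and Cdx2, a member of the endoderm and trophoblast lists (1.10), were also called higher. None of these 3 lists had a lower call. The part of these cell types in the values of the high-numbered Hoxc genes was not tested.

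In ES cells the same marker lists are to be read against 2.82% higher and 3.01% lower of all genes. The ES cell list had 2 higher of 6 in ES Eed KO, with a sum of 1511 FPKM there and 1347 in ES wild type. The limb list had 2 higher, Pitx1 at 1.04 and Tbx3 at 1.77, the cardiac list 2 and the endoderm list 1, and the trophoblast list had 2 higher and 1 lower. The lower one, Krt8, was within the rule with upper-quartile (-0.97) and equal totals (-0.92) scaling. Of the cardiac calls, that of Nkx2-5 describes levels, since it passed the filter only through libraries labelled Eed KO. The neuron list had 2 lower, Ina and Nefl, with a sum of 173 in ES Eed KO and 224 in ES wild type. Nefl was within the rule, between -0.98 and -0.92, under each of the 3 other scalings. The motor neuron and paraxial mesoderm lists had 0 called. With equal totals Isl1 (1.03) and Isl2 (1.24) of the motor neuron list, Meox1 (1.02) of the paraxial list, Hand2 (1.20) of the limb list, Gata6 (1.37) of the endoderm list and Gata3 (1.04) of the trophoblast list were also called higher.

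Genes with a pattern most like a member were sought among 10394 genes outside the Hox clusters, by Pearson's r of log2(FPKM + 1) over the 6 libraries. For Hoxc8 the 5 nearest were Kdm7a, Pax3, Ebf2, Phf14 and Meox1, with r from 0.996 to 0.998. Pax3, a neural crest and muscle progenitor factor, had 1.61 FPKM in EB Eed KO and 10.04 in EB wild type. Meox1, a somite factor, had 1.64 in EB Eed KO and 6.16 in EB wild type. For Hoxc10 they were Cdkn2a, Barx1, Braf, Slc37a3 and Sema4f, with r from 0.991 to 0.997. Cdkn2a, a cell cycle inhibitor locus, had 42.8 FPKM in ES Eed KO, 14.4 in ES wild type, 112 in EB Eed KO and 16.1 in EB wild type. The homeobox gene Barx1 had 6.32 in ES Eed KO, 0.558 in ES wild type, 42.6 in EB Eed KO and 0.759 in EB wild type. These values describe 6 points that share their libraries. Pearson's r takes no account of the size of a change, and some of the named genes changed little. Phf14 had 14.4 FPKM in EB Eed KO and 21.7 in EB wild type. Braf had 19.9 in EB Eed KO and 10.5 in EB wild type. Of the 5 genes, 2 for Hoxc8 and 3 for Hoxc10 lie on chromosome 6. The share of all 10394 genes on that chromosome was not computed, so these counts show no excess there.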

How the data were processed

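RNA of 6 libraries (1 per group) was sequenced from TruSeq RNA version 2 libraries, per the labels' protocols. The authors deposited FPKM values for 29851 RefSeq transcripts, made with TopHat and Cuffdiff on mm9, per the submitters' processing notes. Tool versions, annotation release and scaling method were not given in the sources used here. The fragments per library are unknown, so low values carry an unknown counting error. Accessions were matched to symbols through a RefSeq table of GRCm38.p6 (29300 matched, 551 not). Of a gene's transcripts the one with the highest mean was used. Table starts count from 0 (spans equal the reference's in 43.8% of single-transcript loci, against 2.50% if counted from 1), and starts printed here count from 1. Relative depth is the inverse of the most common ratio of low FPKM values to those of ES wild type. Differences used a pseudocount of 1, a minimum FPKM of 1 and a size rule of 1, in 7 comparisons. They were computed with Python 3.11.15, pandas 2.3.3 and numpy 2.4.6. The size rule was tried on copied values changed by a fixed factor, without noise and not near 0, which checks its arithmetic only. Promoters and microRNAs are from RefSeq tables. Members and the 18 gene lists were chosen with earlier results of these data known. Named genes were all members, transcripts inside the cluster, 5 neighbours on each side, paralogues, up to 4 of the list members with the largest differences in embryoid bodies (not each is printed), and the 5 genes most like Hoxc8 and Hoxc10. Pseudocount, filter, size rule, transcript choice, scaling and control were varied; the lists and paralogue counts under other scalings were added after the values were seen. Trp53, Eif2s3y, list members listed at 0 and list members whose call changed with the scaling were also named after their values were seen. So were the untested members of the endoderm and trophoblast lists, and list members that passed the filter through libraries of a single genotype only.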

Additional observations from a re-analysis of the deposited data

Results flagged for a closer look

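The effects of the Eed KO label on 4 Hoxc genes ran in opposite directions in embryoid bodies and in ES cells. For Hoxc4, Hoxc5, Hoxc6 and Hoxc8 the embryoid body effect minus the ES effect was -4.90, -4.42, -3.72 and -2.26 on the log2(FPKM + 1) scale. Each gene was lower in EB Eed KO than in EB wild type, by the size rule, and above its wild type in ES Eed KO, where only Hoxc4 passed the size rule. Hoxc5, Hoxc6 and Hoxc8 were below 1 FPKM in both ES libraries, with 0.331, 0.499 and 0.502 in ES Eed KO. They passed the filter only through embryoid body libraries, so their ES direction rests on values near 0. With 1 library per group the difference was not tested.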

How the results depend on the processing

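The filters and the sum over transcripts left every tested member's value as it was (each has 1 transcript), so they are not counted here. Of 100 member counts recomputed under the other settings, 92 stayed within 1.5 times the reported count. Counts reported as 0 are among them, and these stay the same unless a member is newly called. With a pseudocount of 0.1, 9 members were higher in ES Eed KO than in ES wild type, and in EB wild type against ES wild type 6 were higher (Hoxc10 added) and 1 was lower (Hoxc12). A size rule of 1.5 left 1 member higher in the ES Eed comparison, and E14 shCtrl as the control left 3. Between shCtrl and ES wild type, 1 member, Hoxc13, was called higher with a pseudocount of 0.1 or 0.5, a lower size rule (a fold of about 1.5) or equal totals. Of 335 recomputed member differences, 296 kept their side of the size rule, 29 newly passed it and 10 no longer did. No called difference turned its sign under the other scalings or the other control. The pseudocounts and size rules cannot turn a sign, so they are no check of it. Hoxc11 in ES Eed KO lay near the rule, at 0.98 with upper-quartile and 0.99 with median-of-ratios scaling.

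Over all genes, a pseudocount of 0.1 gave 937 higher and 887 lower in the ES Eed comparison in place of 417 and 445. In that comparison the lower size rule gave 1278 higher and 1508 lower, and the rule of 1.5 gave 138 and 154. In embryoid bodies the lower rule gave 2278 and 3235 and the rule of 1.5 gave 485 and 648, in place of 1135 and 1450. Equal totals gave 774 and 461 in ES cells, E14 shCtrl as the control gave 701 and 494, and median-of-ratios scaling gave 1356 and 1158 in embryoid bodies, where the median of all genes was then -0.03 in place of -0.14. Equal totals put the median of all genes at 0.28 for EB wild type against ES wild type and at 0.19 for EB Eed KO against ES Eed KO, in place of 0.02 and -0.03. For the gene lists, to which the scalings were applied after the values were seen, no called gene turned its sign in either Eed comparison.

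No paired analysis was possible because each group has 1 library, and no library was left out for the same reason.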
